A study of Mus musculus with 7 samples.

Results

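Mouse embryonic fibroblasts (MEFs) exposed to 100 mM added sodium chloride (NaCl) for 3 hours were compared with untreated MEFs. These are 2 of the 7 libraries of an RNA-seq series with 5 further conditions. Cells were deprived of glucose, deprived of glutamine, kept in hypoxia (0.1% oxygen) or put under ER stress by thapsigargin at 1 μM, all for 10 hours, or put under oxidative stress by sodium arsenite at 10 μM, for 3 hours. All cells were wild type primary fibroblasts, not a clone, grown from embryos of day 13.5 to 14.4 after removal of the head and liver and used at passages 3 to 7. The methods of the published study differ slightly from these values in the last embryonic day and the first passage. The control has no time in the labels, so a treatment of 3 hours cannot be paired with a control of the same age. The control and the osmotic stress condition were each represented by 1 library. Replicate error is therefore unknown, and the values carry no SD, interval or p-value. Genes were compared where their mean over the 7 libraries was at least 2 TPM, a unit that scales a gene's transcripts by their length and by the total of the library. Predicted genes, microRNA, snoRNA and mitochondrial tRNA genes and pseudogenes were left out by the pattern of their symbols, which kept 11627 of 49382 genes. The log2 change is log2(TPM + 1) in osmotic stress minus that in the control, less the median of all kept genes, which was -0.13 before this centring. A gene is said to have risen or fallen where this change was over 2-fold, a rule of size and not a test.

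Added salt draws water out of a cell, so that its volume falls and the ions and macromolecules inside become concentrated. Mammalian cells answer first by taking up ions and then by exchanging them for compatible organic osmolytes such as sorbitol, inositol, taurine, betaine and neutral amino acids, which do not disturb proteins. The transcription factor NFAT5, also called TonEBP, drives the genes for this exchange by binding a short element, TonE, in their regulatory regions, and the stress kinases p38 and JNK are activated at the same time. Hyperosmotic shock is also known to slow general transcription and translation and to condense chromatin.

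Of the 11627 genes, 256 rose (2.2%) and 647 fell (5.56%), so that decreases were 2.53 times as many as increases. Without centring the counts were 187 (1.61%) and 864 (7.43%), and decreases made up 82.2% of the changed genes in place of 71.7%. On a log2(TPM + 5) scale, centred, the counts were 134 risen and 161 fallen. Most of the excess of decreases was in the 2-fold to 4-fold range. At over 3-fold 63 genes were higher and 171 lower, at over 4-fold 41 and 60, and at over 8-fold 9 and 7. The genes that fell were of modest abundance, with a median of 9.33 TPM in the control and 2.61 TPM in osmotic stress, against 22.3 and 19.5 TPM over all kept genes. Together they took 1.20% of the control library and 0.388% of the osmotic stress library. Genes that rose went from a median of 7.64 to 21.8 TPM and from 0.603% to 1.55% of the library. The other 5 conditions entered the filter on mean TPM, but not the 2-fold rule. The osmotic stress library was lowest of all 7 for 588 of the 647 fallen genes (90.9%, against 23.1% of all kept genes). It was highest of all 7 for 167 of the 256 risen genes (65.2%, against 13.5%). A gene below its control value is more often lowest of 7 than any gene at all, so these shares describe the calls and do not test them.

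**Figure D1:**
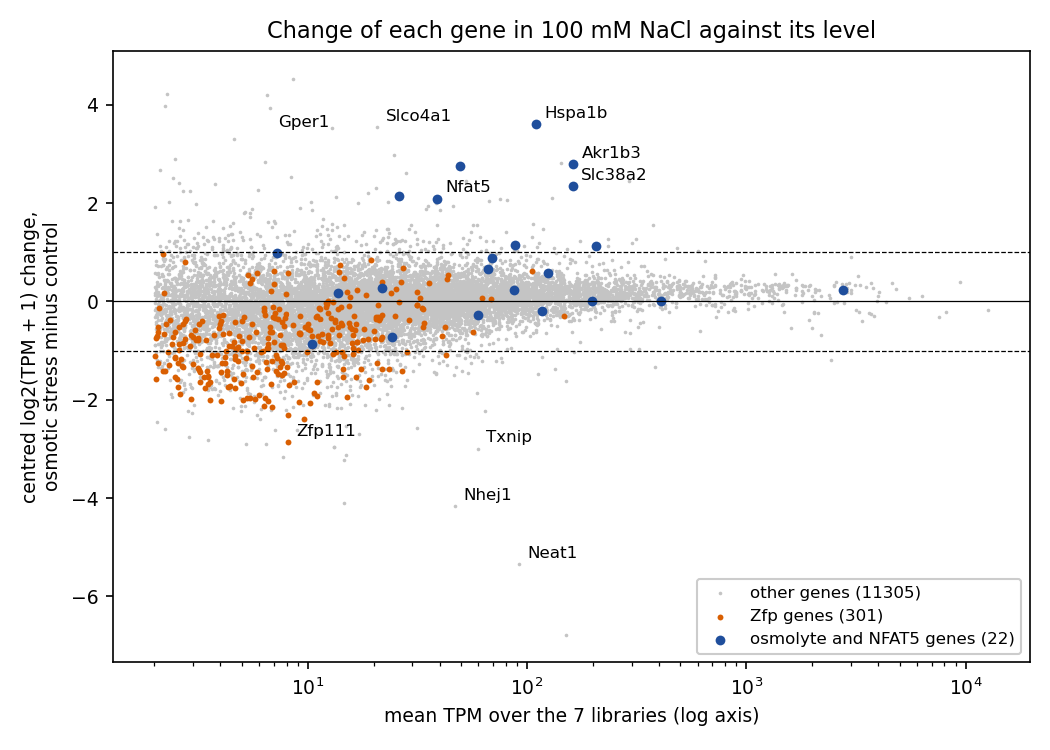
Each point is 1 of the 11627 kept genes, with its mean TPM over the 7 libraries on a log axis and its centred log2(TPM + 1) change on the vertical axis. Dashed lines mark a 2-fold change, orange points the 301 genes named Zfp and blue points the 22 kept genes of the osmolyte and NFAT5 list. The orange points lie mostly below 0 and at low TPM, and the blue points that stand out lie above the upper line.

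The 3 marker genes of the osmotic response were all highest in osmotic stress. Nfat5 was at 23.7 TPM in the control, 28.4 in glucose depletion, 48.7 in glutamine depletion, 95.2 in osmotic stress, 23.5 in ER stress, 29.9 in oxidative stress and 22.9 in hypoxia, a log2 change of 2.09. Akr1b3, the aldose reductase that makes sorbitol from glucose, was at 90.5 TPM in the control, 105 in glucose depletion, 69.8 in glutamine depletion, 575 in osmotic stress, 140 in ER stress, 75.8 in oxidative stress and 78.7 in hypoxia (2.79). Slc38a2, the SNAT2 carrier that takes up small neutral amino acids, was at 102 TPM in the control, 84.2 in glucose depletion, 106 in glutamine depletion, 478 in osmotic stress, 135 in ER stress, 130 in oxidative stress and 94.9 in hypoxia (2.35). For each of them the osmotic stress library stood clear of the other 6, of which none passed 48.7 TPM for Nfat5, 140 TPM for Akr1b3 or 135 TPM for Slc38a2.

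A list of 25 genes for osmolyte uptake and the NFAT5 response was read in the same way. Of its 22 kept members, 8 rose (36.4%, against 2.2% of all genes), 0 fell, and the median change was 0.62. The 8 include the marker genes above, chosen beforehand, and the HSP70 genes Hspa1a and Hspa1b, described below. This share is therefore not independent of the markers. Besides Nfat5, Akr1b3 and Slc38a2, the chaperone gene Hspa4l (Osp94), first known as an osmotic stress protein, went from 16.7 to 70.3 TPM (2.14), with 10.5 to 31.5 TPM in the other 5 conditions. Sgk1, a kinase that regulates sodium and osmolyte transport, went from 166 to 334 TPM (1.13), but stood at 323 TPM in glutamine depletion. Tsc22d2, of a family of osmotically regulated leucine zipper genes, went from 62.1 to 126 TPM (1.14) and was at 132 TPM in ER stress. Its relatives Tsc22d3 and Tsc22d4 had changes of -0.73 and -0.27.

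The classical osmolyte transporters moved less than Akr1b3 and Slc38a2. Slc5a3, the sodium and myo-inositol cotransporter, was at 6.87 TPM in the control and 13.3 in osmotic stress, just inside the 2-fold line (0.99), with 4.29 to 9.35 TPM elsewhere. Slc6a6, the taurine transporter, was at 138 and 188 TPM (0.57), and Slc6a8, the creatine transporter, at 88.8 and 94.9 TPM (0.22). The betaine and GABA transporter Slc6a12 did not pass the filter, at 0.586 TPM in the control, 0.254 in osmotic stress and 9.47 in ER stress. Slc14a2, a urea transporter of the kidney, was below 1 TPM in both libraries, and Ranbp3l was listed at 0 in both. The osmotic stress library held the highest of 7 values for Slc5a3, Slc6a6 and Aqp5, a water channel at 85.1 and 145 TPM (0.89), whereas Aqp1 was level at 240 and 220 TPM (0.00). Pnpla6, which makes the osmolyte glycerophosphocholine, was at 15.7 and 16.1 TPM (0.16), Ccl2 at 64.9 and 94.1 TPM (0.66), S100a4 at 3444 and 3685 TPM (0.23), Zfp36 at 16.3 and 18.1 TPM (0.27) and Ddit4l at 18.2 and 8.68 TPM (-0.86). The heavy and light chains of the large neutral amino acid exchanger, Slc3a2 and Slc7a5, changed by 0.00 and -0.19.

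Hspa1a and Hspa1b, the inducible HSP70 genes already counted in the osmolyte list, rose most in oxidative stress. Hspa1b was at 22.8 TPM in the control, 263 in osmotic stress and 413 in oxidative stress, with 10.8 to 22.6 TPM in the remaining 4 conditions, a change of 3.61. Hspa1a was at 7.52, 51.4 and 273 TPM in the same 3 libraries (2.75). Their sequences are nearly identical, so the split of reads between them is uncertain. Dnajb9, an ER cochaperone, was the remaining member to rise of the 36 kept genes of a chaperone list, from 31.4 to 72.2 TPM (1.31). In that list 4 rose (11.1%, against 2.2% of all genes), 0 fell and the median was 0.24.

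**Figure D2:**
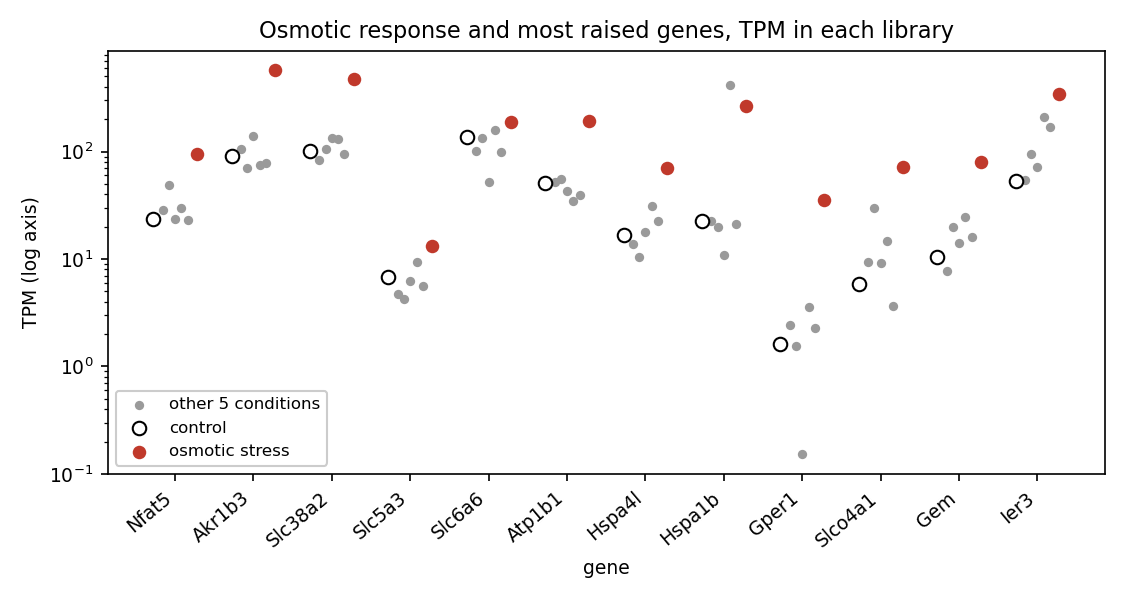
TPM on a log axis in each of the 7 libraries for 12 genes of the osmotic response or among the largest rises. Open circles are the control, red the osmotic stress library and grey the other 5 conditions, 1 library each. Red lies above all other points for every gene shown but Hspa1b, which was higher in oxidative stress.

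The TonE element was looked for in RefSeq promoter windows of the GRCm38.p6 build, which run from 250 bases before to 50 bases after a gene's start. Enhancers and introns, where such elements also lie, were outside these windows. The element was found, on either strand, in 4.96% of all 32851 windows, in 4.36% of the 8908 kept genes that have one, in 11 of 180 risen genes (6.11%) and in 18 of 484 fallen genes (3.72%). Akr1b3 and Slc6a6 had no window, and of the 15 kept members of the osmolyte list that had one, 1 held the element (Pnpla6). Of the 10 genes with a window among the 20 largest rises described next, Gper1 and Csrnp1 held it. The 250 bases before the start of these 2 genes and of Slc6a12 are shown, 5′ to 3′ on the gene's own strand with the match in capitals. They are Gper1 at chr5:139422929-139423178 (plus strand, forward match 171 bases before the start), Csrnp1 at chr9:119983780-119984029 (minus strand, reverse match 43 bases before the start) and Slc6a12 at chr6:121342324-121342573 (plus strand, forward match 75 bases before the start).
Gper1: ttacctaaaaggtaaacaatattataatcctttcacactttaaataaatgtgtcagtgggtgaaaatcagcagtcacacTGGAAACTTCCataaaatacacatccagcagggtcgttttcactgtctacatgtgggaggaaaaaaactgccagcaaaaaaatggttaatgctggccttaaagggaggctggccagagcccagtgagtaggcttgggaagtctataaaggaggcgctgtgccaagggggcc
Csrnp1: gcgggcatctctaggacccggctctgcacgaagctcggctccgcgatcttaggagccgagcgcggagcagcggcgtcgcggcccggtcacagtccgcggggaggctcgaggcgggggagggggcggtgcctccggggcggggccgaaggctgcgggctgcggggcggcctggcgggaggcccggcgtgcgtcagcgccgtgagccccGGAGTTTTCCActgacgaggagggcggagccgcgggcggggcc
Slc6a12: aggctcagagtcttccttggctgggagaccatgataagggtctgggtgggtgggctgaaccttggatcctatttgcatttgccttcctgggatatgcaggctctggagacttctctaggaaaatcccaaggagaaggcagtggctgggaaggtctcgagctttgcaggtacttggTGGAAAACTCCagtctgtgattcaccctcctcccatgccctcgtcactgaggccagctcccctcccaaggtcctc
The 3 genes with these letters did not share a response, since Gper1 and Csrnp1 rose and Slc6a12 stayed under 1 TPM. A match is a run of letters and not evidence of binding.

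Regulation of cell volume was read from 26 kept genes for ion carriers, volume-sensitive channels and osmosensing kinases. Of these, 2 rose (7.69%, against 2.2% of all genes), 1 fell (3.85%, against 5.56%) and the median was 0.18. Atp1b1, the beta subunit of the sodium pump, was at 50.6 TPM in the control, 51.7 in glucose depletion, 55.4 in glutamine depletion, 193 in osmotic stress, 42.8 in ER stress, 34.9 in oxidative stress and 39.4 in hypoxia (2.05), so that osmotic stress stood apart. Atp1b3, another beta subunit, also had its highest of 7 values here, with a change of 0.40. Nfat5, already counted in the osmolyte list, is the other gene of this list that rose. The subunits of the volume-regulated anion channel, which opens when cells swell, were lower or level. Lrrc8e fell from 2.88 to 0.527 TPM (-1.22), Lrrc8a, the essential subunit, was at 21.1 and 11.4 TPM (-0.70), and Lrrc8b, Lrrc8c and Lrrc8d had changes of 0.26, -0.21 and -0.28. The sodium, potassium and chloride cotransporter Slc12a2, which loads shrunken cells with salt, was at 11.6 and 13.3 TPM (0.31), and the potassium and chloride exporters Slc12a4 and Slc12a7 were within 0.10 of 0. The kinases that govern them, Wnk1, Wnk3, Wnk4, Stk39 and Oxsr1, had changes between 0.18 and 0.44. Slc4a2, an exchanger of chloride for bicarbonate, changed by -0.15. In the p38 branch, Map2k3 had a change of 0.53, Mapk14 of -0.43, and Ccm2, Rac1 and Map3k4, which link osmosensing to the kinases, of -0.22, 0.18 and -0.23. Piezo1, a stretch-activated channel, changed by 0.33. Map2k6, Map3k5, Trpv4, Slc12a1 and Wnk2 did not pass the filter.

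The largest rises were drawn from genes with at least 10 TPM in 1 of the 2 libraries. Of the 20, 6 carried only a clone or gene segment name, 4 were listed at 0 in the control, and 15 lay outside the range of the other 6 libraries. Gper1, a G protein-coupled estrogen receptor, was at 1.62 TPM in the control, 2.41 in glucose depletion, 1.54 in glutamine depletion, 35.3 in osmotic stress, 0.154 in ER stress, 3.54 in oxidative stress and 2.27 in hypoxia (3.92). Slco4a1, an organic anion transporter that carries thyroid hormone, was at 5.89 TPM in the control, 9.40 in glucose depletion, 30.0 in glutamine depletion, 72.3 in osmotic stress, 9.22 in ER stress, 14.8 in oxidative stress and 3.62 in hypoxia (3.54). Both genes were highest in osmotic stress by a wide margin, although glutamine depletion also held more Slco4a1 than the control.

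Gem, a small GTPase that restrains calcium channels and the cytoskeleton, went from 10.4 to 80.7 TPM (2.97), against 7.78 to 24.6 TPM elsewhere. The nuclear protein Csrnp1 went from 13.7 to 81.7 TPM (2.62) and was at 54.4 TPM in oxidative stress, the other treatment of 3 hours. Mpp5 (PALS1), a scaffold of cell polarity, went from 11.6 to 55.7 TPM (2.30), with 9.88 to 22.5 TPM in the other conditions. Fam180a went from 3.41 to 18.5 TPM (2.28). Opn1sw, the short-wave opsin of the retina, was listed at 0 in the control and at 13.3 TPM in osmotic stress, with at most 1.19 TPM elsewhere.

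Growth factor signalling and its feedback made up a further group. Of 29 immediate early genes, 9 rose (31.0%, against 2.2% of all genes), 3 fell (10.3%) and the median was 0.60. Ier3 went from 52.9 to 347 TPM (2.82), Fosb from 1.03 to 6.37 TPM (1.99), Atf3 from 3.02 to 13.2 TPM (1.95) and Btg1, a restraint on growth, from 25.9 to 92.8 TPM (1.93). Osmotic stress held the highest value for Ier3 and Btg1, whereas Atf3 reached 112 TPM in another condition. Rhob fell from 116 to 37.6 TPM (-1.47), Gadd45g from 169 to 58.7 TPM (-1.38) and Btg2 from 50.8 to 20.7 TPM (-1.13), each the lowest of 7. Fos, Jun and Egr1, which were picked out after their values were seen, had changes of only 0.12, -0.26 and 0.39.

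Feedback inhibitors of the ERK pathway rose in 6 of 18 cases (33.3%, against 2.2% of all genes) with 0 falls (median 0.38). With a minimum mean of 10 TPM, which keeps fewer members, the median of these ERK feedback genes was -0.03. The phosphatase genes Dusp1, Dusp16 and Dusp6 went from 44.3 to 175 TPM (2.09), from 6.97 to 22.3 TPM (1.68) and from 16.1 to 40.6 TPM (1.41), and the Sprouty gene Spry2 from 19.6 to 68.0 TPM (1.87). Among 49 growth factors 6 rose (12.2%, against 2.2% of all genes) and 0 fell. Ereg, a ligand of the EGF receptor, went from 16.2 to 85.3 TPM (2.45), with 108 TPM in glutamine depletion and 86.8 TPM in oxidative stress. The neurotrophin Bdnf went from 25.02 to 56.5 TPM (1.27) and the cytokine Clcf1 from 12.8 to 27.4 TPM (1.17). Growth factor receptors rose about as often as all genes, with 1 of 43 risen (2.33%, against 2.2%) and 0 fallen. That gene, Epha2, went from 41.8 to 161 TPM (2.05).

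Inflammatory, TGF-β and lipid genes rose in small numbers. Ptgs2 (COX-2), which makes prostaglandins and is known to protect cells in salt, was at 83.8 TPM in the control, 420 in osmotic stress and 667 in glutamine depletion (2.44). It was 1 of 3 risen genes (9.68%, against 2.2% of all genes) among 31 chemokine and inflammatory genes, with the NF-κB inhibitors Tnfaip3 (2.57 to 7.07 TPM, 1.31) and Nfkbia (36.7 to 72.0 TPM, 1.09). In the TGF-β and BMP list 3 of 39 rose (7.69%), all of them repressors of SMAD signalling, namely Skil (20.7 to 78.7 TPM, 2.01), Tgif1 (61.1 to 157 TPM, 1.48) and Tgif2 (6.38 to 14.6 TPM, 1.21). Of 35 genes of cholesterol and fatty acid synthesis 5 rose (14.3%, against 2.2% of all genes) and 0 fell, with 30 above 0 and a median of 0.29. Read against the glucose depletion library in place of the control, that median was 1.06. They were led by Sc5d (65.4 to 161 TPM, 1.42), a late enzyme of cholesterol synthesis, and Insig1 (45.8 to 100.8 TPM, 1.25), which restrains that pathway.

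Decreases formed the larger side. Neat1, the long noncoding RNA on which nuclear paraspeckles are built, was at 133 TPM in the control, 66.6 in glucose depletion, 107 in glutamine depletion, 2.01 in osmotic stress, 56.2 in ER stress, 207 in oxidative stress and 70.4 in hypoxia, a change of -5.35. No other condition brought it under 56.2 TPM. Malat1, its neighbour on the chromosome and named here after its value was seen, was at 99.1 and 111 TPM (0.29). Nhej1, a factor of DNA end joining, was at 96.5 TPM in the control, 22.8 in glucose depletion, 39.8 in glutamine depletion, 3.97 in osmotic stress, 62.3 in ER stress, 44.7 in oxidative stress and 59.4 in hypoxia (-4.16). Its control value was the highest of 7, so the fall was smaller against each of the other conditions.

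Of the 20 largest falls with at least 10 TPM in the control, 19 lay outside the range of the other 6 libraries, 4 had only clone names and 2 were listed at 0 in osmotic stress. Rpp38, a protein of the RNase P complex that trims tRNAs, was at 14.9 TPM in the control, 16.9 in glucose depletion, 15.4 in glutamine depletion, 0.548 in osmotic stress, 27.7 in ER stress, 11.2 in oxidative stress and 15.8 in hypoxia (-3.23). Rpp25l, related to another protein of that complex, went from 29.1 to 3.22 TPM (-2.70), and the tRNA methyltransferase Trmt5 from 14.7 to 1.28 TPM (-2.65). All 3 were lowest in osmotic stress. Of 16 kept genes with symbols starting Trmt, a class picked after its values were seen, 3 fell (18.75%, against 5.56% of all genes). Their median was -0.63.

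Txnip, an arrestin that inhibits thioredoxin and glucose uptake, was at 70.7 TPM in the control, 16.1 in glucose depletion, 68.7 in glutamine depletion, 7.22 in osmotic stress, 120 in ER stress, 44.9 in oxidative stress and 91.7 in hypoxia (-2.99). Transcription factors followed. Irf1, which drives interferon genes, went from 26.6 to 3.36 TPM (-2.53), with 6.40 to 23.3 TPM elsewhere, and Klf2, a factor best known from endothelium, from 24.96 to 4.14 TPM (-2.21), with 5.99 to 41.5 TPM elsewhere. Klf10 went from 21.8 to 7.75 TPM (-1.25), while Klf5 and Klf9 of the same family rose from 8.41 to 36.5 TPM (2.13) and from 41.4 to 86.5 TPM (1.18). The Notch glycosyltransferase Lfng went from 12.0 to 1.59 TPM (-2.20) and the forkhead factor Foxs1 from 20.4 to 3.37 TPM (-2.16), but ER stress held as little Foxs1, at 3.00 TPM. Ankrd49 went from 18.9 to 1.10 TPM (-3.12) and Rnf113a2 from 16.2 to 2.52 TPM (-2.16).

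**Figure D3:**
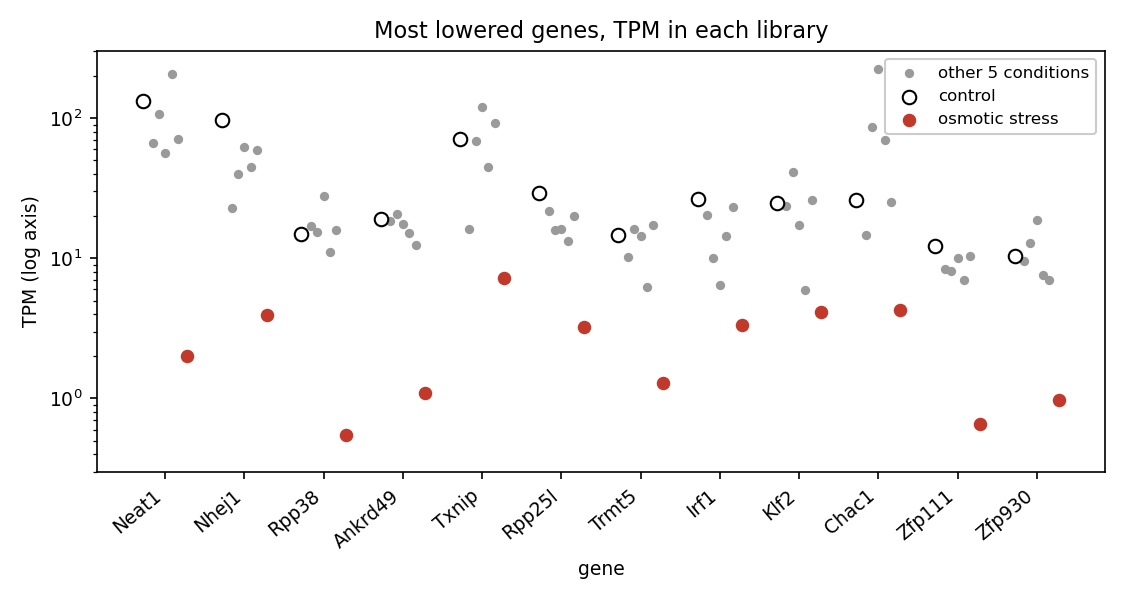
TPM on a log axis in each of the 7 libraries for 12 of the largest falls. Open circles are the control, red the osmotic stress library and grey the other 5 conditions, 1 library each. Red is the lowest point for all 12 genes.

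The most regular decrease was that of the zinc finger genes named Zfp, most of which encode DNA-binding proteins with arrays of C2H2 fingers, many joined to the KRAB repressor domain. Of 301 kept, 110 fell (36.5%, against 5.56% of all genes), 0 rose, 266 lay below 0 and the median change was -0.75. On a log2(TPM + 5) scale, which shrinks the changes of low genes, 18 fell and the median was -0.40. Their median level was 7.76 TPM in the control, 7.56 in glucose depletion, 7.47 in glutamine depletion, 3.68 in osmotic stress, 9.48 in ER stress, 6.82 in oxidative stress and 7.84 in hypoxia. Osmotic stress was thus the lowest condition for the class, and it was the lowest of 7 for 226 of the 301 genes singly (75.1%, against 23.1% of all).

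Zfp111 was at 12.2 TPM in the control, 8.36 in glucose depletion, 8.10 in glutamine depletion, 0.663 in osmotic stress, 10.1 in ER stress, 6.998 in oxidative stress and 10.4 in hypoxia (-2.86). Zfp930 was at 10.4 TPM in the control, 9.62 in glucose depletion, 12.9 in glutamine depletion, 0.982 in osmotic stress, 18.8 in ER stress, 7.61 in oxidative stress and 6.96 in hypoxia (-2.39). Zfp935 went from 7.29 to 0.537 TPM (-2.30) and Zfp105 from 6.82 to 0.621 TPM (-2.14). In these 4 genes no library but that of osmotic stress was under 5.28 TPM. Zfp genes sit in clusters, and the share that fell was 14 of 22 on chromosome 13, 23 of 44 on chromosome 17 and 23 of 68 on chromosome 7, but 0 of 15 on chromosome 4, where the median was still -0.58. Members of a cluster are related in sequence, so reads may be divided between them with error, and they are not independent of each other.

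Below 50 TPM, Zfp genes fell more often than other genes of the same level. Among genes with a mean of 2 to 5 TPM 51.0% of Zfp genes and 9.86% of other genes fell, at 5 to 10 TPM 43.7% and 9.33%, at 10 to 20 TPM 21.9% and 6.70%, and at 20 to 50 TPM 15.8% and 2.33%. Above this, 0 of 3 Zfp genes at 50 to 100 TPM and 0 of 2 at 100 TPM or more fell, against 1.17% and 0.524% of other genes. Other zinc finger families, picked out by symbol after their values were seen, showed the same side. Of genes starting Zscan 5 of 8 fell (62.5%, median -1.54), of Zkscan 3 of 7 (42.9%, -0.82) and of Zbtb 10 of 35 (28.6%, -0.35). The share over all genes was 5.56%, and 9.33% for genes other than Zfp at 5 to 10 TPM. The control medians of these small families lay in that range, from 6.96 to 7.94 TPM. Zbtb2, however, rose from 10.0 to 39.4 TPM (2.00).

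The share of decreases also differed with gene structure. The fallen protein-coding genes had a median of 4 coding exons, the risen 6 and all kept protein-coding genes 9. Exons were counted in 1 transcript per gene, the one ranked as principal in the GENCODE annotation. Where ranks were equal, the transcript with the longest coding sequence was taken. With Zfp genes set aside, 16.5% of 556 genes with 1 coding exon fell, 10.6% of 482 with 2, 6.83% of 600 with 3, 5.12% of 1563 with 4 to 5, 3.50% of 2056 with 6 to 8, 3.55% of 2848 with 9 to 14 and 1.48% of 2766 with 15 or more. The share that rose was also smaller in genes of many exons, less steeply, at 3.24% with 1 coding exon, 4.36% with 2 and 1.55% with 15 or more. The gradient was also present within classes of abundance. At a mean of 10 to 20 TPM 22.6% of genes with 1 coding exon, 8.38% with 2 to 8 and 3.73% with 9 or more fell, and at 20 to 50 TPM 7.48%, 2.74% and 1.496%.

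Single coding exon genes had a median of 13.4 TPM in the control, 13.2 in glucose depletion, 12.6 in glutamine depletion, 8.72 in osmotic stress, 12.7 in ER stress, 10.5 in oxidative stress and 13.0 in hypoxia. Osmotic stress was the lowest, and oxidative stress, also of 3 hours, came next. Over all kept genes the osmotic and oxidative stress libraries were also the lowest, with a median of 19.5 TPM each. The other libraries had medians of 21.1 to 22.8 TPM. Genes with 15 or more coding exons were nearly level, with medians of 22.2 TPM (control) and 20.8 TPM (osmotic stress). Their lowest median was in oxidative stress, at 20.3 TPM. The length of the 3′ untranslated region, by contrast, gave no such order, with 4.12% to 5.80% of genes falling across 6 classes. Of 82 long intergenic noncoding RNAs 17 fell (20.7%, against 5.56% of all genes) and 5 rose (6.10%, against 2.2%), so both shares were above those of all genes. Their control median was 7.04 TPM, and of all genes with a mean of 5 to 10 TPM 11.1% fell.

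**Figure D4:**
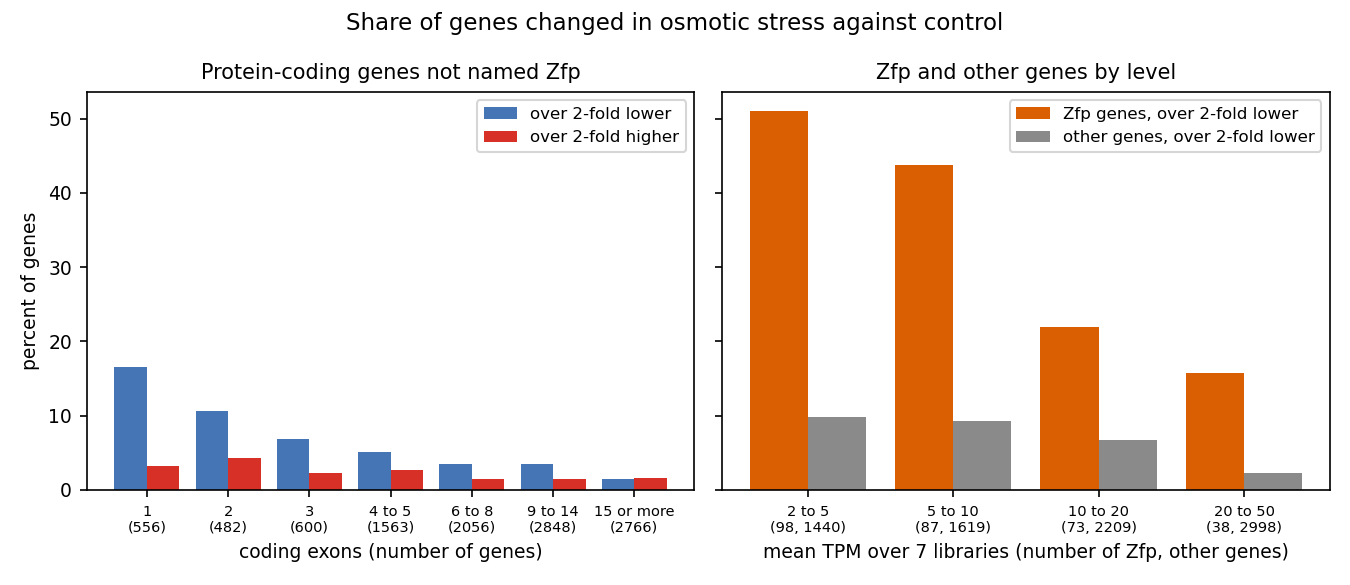
The left panel gives the percent of protein-coding genes not named Zfp that fell (blue) or rose (red) by over 2-fold, by number of coding exons. The right panel gives the percent of Zfp genes (orange) and other genes (grey) that fell, in 4 classes of mean TPM. Numbers of genes stand under each class. Blue bars shrink from 16.5% to 1.48% as exons increase, and orange bars exceed grey ones in each of the 4 classes shown, which end at 50 TPM.

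mRNAs known to turn over fast were read as a group, because the many decreases had appeared within 3 hours. No measurement of mRNA stability was used here, and the list was drawn from textbook examples. Of 58 kept genes 11 rose (18.97%, against 2.2% of all genes) and 5 fell (8.62%, against 5.56%). The median was 0.38, above that of all genes. The 5 that fell were Irf1, Klf2, Rhob, Klf10 and Btg2. The rises included Ier3, Ptgs2, Dusp1 and Fosb, each of them also counted in a list above. The AU-rich nonamer TTATTTATT, a known instability element, was present in the 3′ untranslated region of 16.3% of risen, 8.18% of fallen and 7.55% of all kept protein-coding genes. Of genes with the nonamer 4.03% rose and 5.69% fell, and of genes without it 1.69% rose and 5.22% fell. With Zfp genes set aside, 4.20% rose and 3.83% fell of genes with the nonamer, against 1.74% and 4.44% of genes without it, so that the order of the falls turned. Known short-lived mRNAs therefore lay on both sides of the comparison, more of them above than below.

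Genes of transcription and ribosome assembly fell about as often as all genes. Of 57 kept genes for RNA polymerase II elongation and Mediator 3 fell (5.26%) and 1 rose. Ccnt2, a cyclin of the elongation kinase P-TEFb, went from 14.3 to 3.21 TPM (-1.73), and the Mediator subunits Med18 and Med19 from 5.23 to 1.33 TPM (-1.29) and from 16.1 to 5.94 TPM (-1.17), each the lowest of 7, while Med13 rose from 13.97 to 32.6 TPM (1.30). Of 78 genes of ribosome biogenesis and RNA polymerase I, 4 fell (5.13%), 0 rose and 60 lay below 0 (median -0.21). Taf1c and Taf1a, which position RNA polymerase I, went from 7.07 to 1.51 TPM (-1.55) and from 10.8 to 4.30 TPM (-1.03), and the nucleolar proteins Rrp1b and Wdr43 from 24.1 to 9.96 TPM (-1.07) and from 46.5 to 20.5 TPM (-1.01). Clk2, a kinase of splicing factors, went from 31.5 to 10.2 TPM (-1.41), whereas its relative Clk4 and the RNA helicase Ddx5 rose by 1.06 and 1.04.

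Most mitotic genes lay below 0, and few passed 2-fold. Of 44 members 38 lay below 0, 5 fell (11.4%, against 5.56% of all genes) and 0 rose, with a median of -0.48. Osmotic stress was the lowest of 7 for 10 of the 44, against 23.1% of all genes. Their summed level was 2144 TPM in the control, 1440 in osmotic stress and 1147 in the lowest of the other conditions, so at least 1 other condition was lower still. Cdc25b, the phosphatase that starts mitosis, went from 28.4 to 9.44 TPM (-1.36), the kinesins Kif2c and Kif23 from 26.6 to 10.1 TPM (-1.18) and from 85.7 to 36.8 TPM (-1.07), and the kinase Aurka from 45.8 to 19.9 TPM (-1.03). Outside that list, among the 20 largest falls, Sgol1, which guards the cohesion of centromeres, went from 12.9 to 1.08 TPM (-2.61) and Ccnf, a cyclin that directs protein degradation in G2, from 21.2 to 3.50 TPM (-2.17). The 44 DNA replication genes were near 0 as a group (median -0.07), with Gins3 and Ung fallen from 6.25 to 1.30 TPM (-1.53) and from 8.40 to 1.98 TPM (-1.53) and Rfc5 risen from 24.9 to 47.5 TPM (1.03). Among G1 regulators Mnt, an antagonist of MYC, went from 13.4 to 3.11 TPM (-1.68) and Mxd3 from 8.11 to 3.01 TPM (-1.05).

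Genes of the ATF4 pathway, which answers amino acid limitation and ER stress, moved both ways. Of the 37 kept, 4 rose and 4 fell (10.8% each, against 2.2% and 5.56% of all genes), and the median was 0.08. With Slc38a2, Ppp1r15a (GADD34), which lets translation resume, went from 38.8 to 154 TPM (2.09), Nupr1 from 211 to 568 TPM (1.55) and the mTORC1 inhibitor Ddit4 from 35.4 to 81.1 TPM (1.30). Chac1, an enzyme that degrades glutathione, went from 26.2 to 4.28 TPM (-2.23), the pseudokinase Trib3 from 30.8 to 6.96 TPM (-1.87), Ddit3 (CHOP) from 136 to 48.9 TPM (-1.33) and the stress sensor Sesn2 from 35.6 to 14.5 TPM (-1.11). All 4 fallen genes were lowest in osmotic stress, while Ddit3 reached 1870 TPM in another condition. Of 29 ER chaperones and genes of the unfolded protein response, 1 rose (Dnajb9) and 1 fell (3.45% each), with a median of 0.03. The one that fell, Xbp1, a factor of that response, went from 106 to 43.7 TPM (-1.12). A separate list of 28 p53 target genes also moved both ways. In it 3 rose and 3 fell (10.7% each, against 2.2% and 5.56% of all genes), with a median of 0.18. The p53 target Bbc3 (PUMA) went from 19.1 to 5.54 TPM (-1.49), while Mdm2, the ligase that limits p53, rose from 105 to 206 TPM (1.09).

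Ubiquitin ligases and deubiquitinases, a large list of 157 kept genes, had 10 falls and 3 rises, a share of falls (6.37%) close to that of all genes. Rnf135 went from 10.1 to 1.34 TPM (-2.12), Fbxo46 from 7.46 to 0.875 TPM (-2.04), Klhl42 from 8.59 to 2.00 TPM (-1.55) and Rnf219 from 9.11 to 2.23 TPM (-1.52), and Rnf24 rose from 11.2 to 50.6 TPM (2.21). The circadian clock genes were divided, with 3 of 18 risen and 3 fallen (16.7% each, against 2.2% and 5.56% of all genes). Rora, an activator of the clock, and Nr1d1, its opposing repressor, rose from 5.50 to 14.9 TPM (1.42) and from 16.1 to 38.2 TPM (1.33), and Ciart and Cry2, both repressors, fell from 4.56 to 0.392 TPM (-1.87) and from 10.1 to 3.68 TPM (-1.12).

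Abundant housekeeping and matrix genes changed little. Of 85 cytosolic ribosomal protein genes 0 passed 2-fold, and their median was 0.24, from 1170 TPM in the control to 1246 TPM in osmotic stress. No member passed 2-fold among 79 nuclear respiratory chain subunits (median 0.13), 56 translation factors (0.08), 53 lysosomal genes (0.30), 36 proteasome subunits (0.07), 25 collagens (0.21), 56 matrix glycoproteins (0.30), 16 integrins (0.23), 41 contractile actin genes (-0.03), 20 aminoacyl-tRNA synthetases (-0.06) and 13 tubulins (-0.17). Medians of this size are read against a median of all genes set to 0. Matrix turnover was less quiet, as Plat, the tissue plasminogen activator, went from 31.6 to 70.3 TPM (1.26) and the collagenase Mmp13 from 2.31 to 9.54 TPM (1.80). The mitochondrial ribosomal RNAs mt-Rnr1 and mt-Rnr2 rose from 241 to 530 TPM (1.27) and from 221 to 463 TPM (1.20), with 11 of the 15 kept mitochondrially encoded genes below 0.

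**Figure D5:**
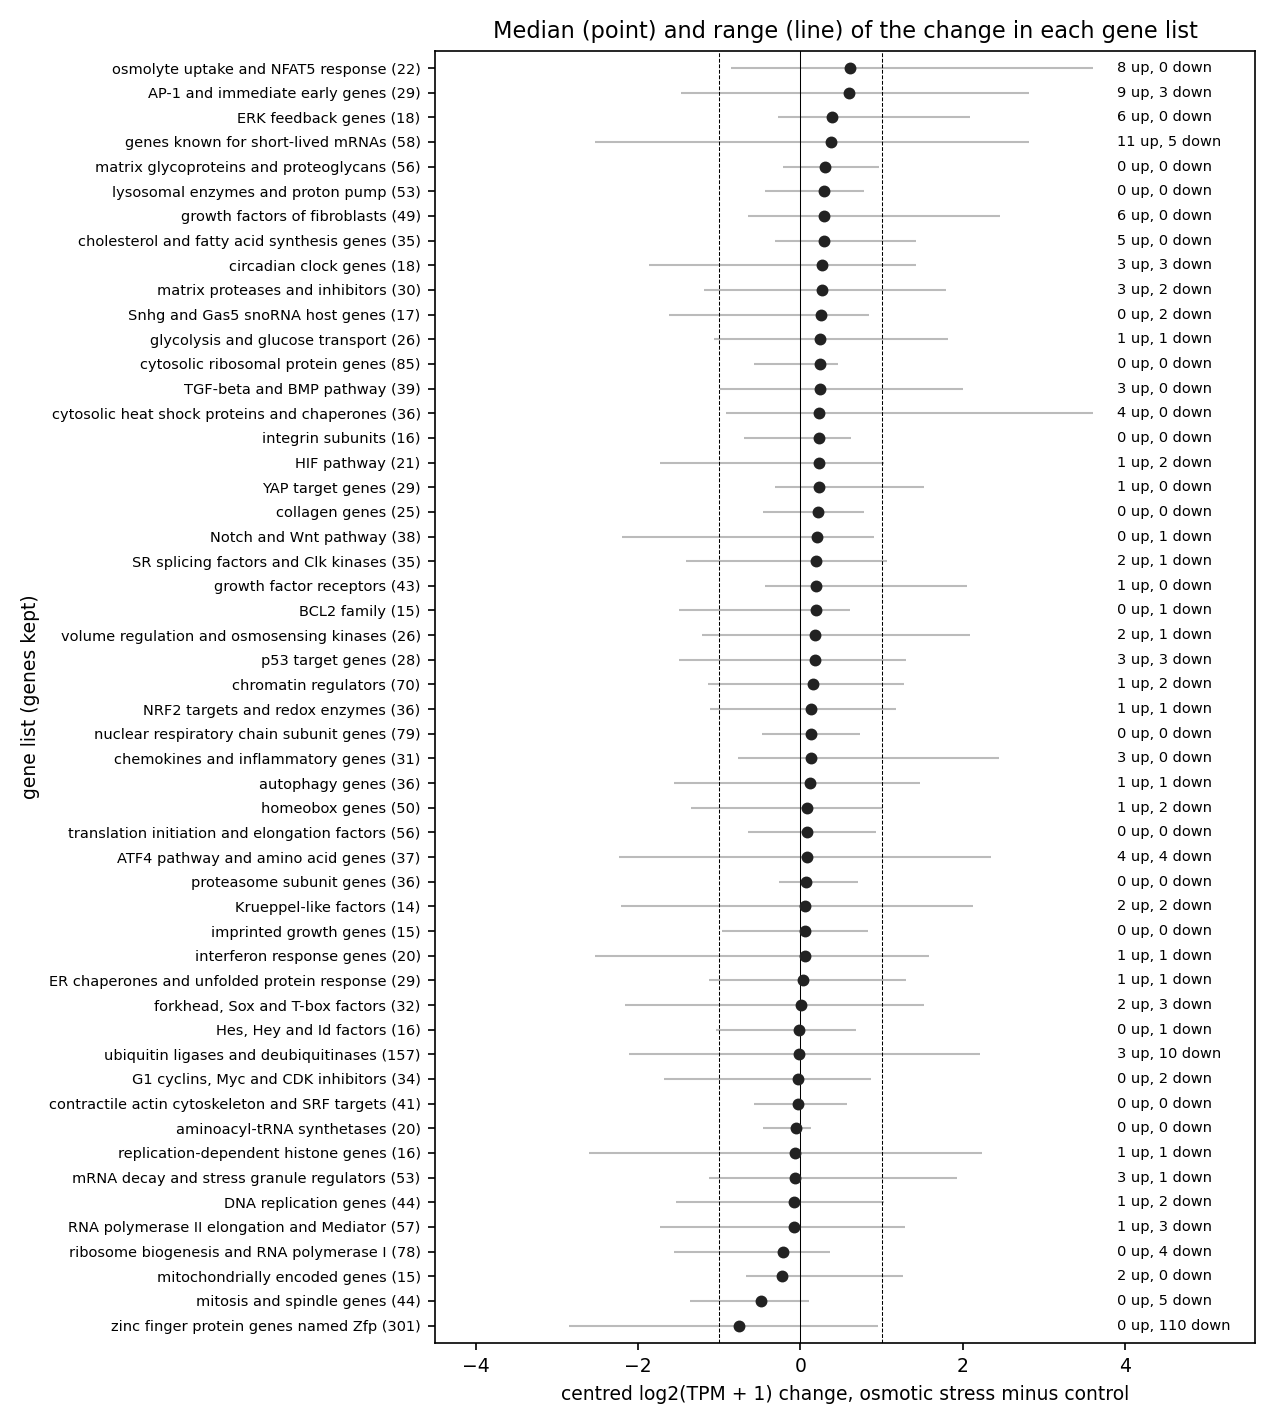
Each row is a gene list with the number of kept genes in parentheses, for lists of at least 14. The point is the median centred log2(TPM + 1) change, the line runs from the lowest to the highest member, and the counts of members over 2-fold higher and lower stand at the right. The osmolyte list leads at 0.62 and the Zfp list is last at -0.75, with most other medians between -0.2 and 0.3.

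The 2 libraries were alike in the measures that TPM allows. Genes above 0 TPM numbered 20613 in the control and 20905 in osmotic stress (19819 to 21154 over the 7), and the 100 most abundant genes took 27.8% and 28.2%. The read depth behind these values is unknown, because TPM keeps no counts, so no counting error can be given for low genes. Mitochondrial transcripts were 6.37% and 5.26% of the 2 libraries. All 10 fibroblast markers passed the filter and changed by 0.02 to 0.51. Of 32 markers of other cell types 19 were under 1 TPM in the control and 18 in osmotic stress, 5 of them at 0 in both, and the changes of those that passed the filter ran from -0.34 (the muscle marker Des, 35.7 and 25.6 TPM) to 0.70 (the neural marker Map2, 19.9 and 30.0 TPM). Their part in the results was not tested. In bulk RNA, fewer cells of a type and less RNA per cell cannot be told apart.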

How the data were processed

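RNA of 7 MEF cultures, 1 per condition, was sequenced from stranded mRNA libraries by paired-end reads. The authors estimated transcript abundance with Kallisto 0.43.1 against the mouse cDNA of the GRCm38 build and deposited TPM summed per gene. TPM are relative shares, so a loss of many low genes raises the rest, and they keep no read depth. From these values log2(TPM + 1) changes were computed with Python 3.11.15, numpy 2.4.6 and pandas 2.3.3, for genes whose mean reached 2 TPM, without 1282 genes left out by symbol, and were centred on their median. The pseudocount of 1 TPM understates the change of low genes. Changes over 2-fold were counted, the study's threshold, here after a centring that the study does not describe, and the counting was checked on simulated data. No test was run, with 1 library per group. Named genes are the 20 largest rises and 20 largest falls with at least 10 TPM in either library, the whole osmolyte and volume lists, and up to 4 rises and 4 falls of each other list (where none passed, up to 3). The comparison, the 66 gene lists and the rule were chosen with earlier results of these data known. Exons and untranslated regions came from GENCODE and promoters from RefSeq (GRCm38.p6). Alternatives were another pseudocount, filter, centring, threshold or reference library. Some members of the lists are not reported here.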

Additional observations from a re-analysis of the deposited data

Results flagged for a closer look

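The 1282 genes left out by their symbols, mostly predicted genes and pseudogenes and so outside every comparison, passed the expression filter and were read once. Of these, 225 were over 2-fold higher in osmotic stress than in the control (17.6%, against 2.2% of the kept genes) and 247 over 2-fold lower (19.3%, against 5.56%). The control was listed at 0 for 130 of the 225, and osmotic stress for 158 of the 247.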

How the results depend on the processing

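The counts rest on the scale and on the threshold. The number of genes higher was 134 and lower 161 with a pseudocount of 5 TPM, 128 and 297 with a minimum mean of 10 TPM, 857 and 1622 at 1.5-fold, and 63 and 171 at 3-fold. Without a filter on low values 427 were higher. The number of Zfp genes lower, 110 as reported, was 18 with a pseudocount of 5 TPM, 23 with a mean of at least 10 TPM, 181 at 1.5-fold and 36 at 3-fold. Fewer genes enter under the stricter filter, and the larger pseudocount shrinks the changes of low genes. More genes were lower than higher under every alternative run. The Zfp median ran from -0.93 to -0.40 and that of the osmolyte list from 0.49 to 0.87. Of 203 named genes, 56 moved with the glucose depletion library as the reference, 64 with the median of the other 6 libraries as the reference and 98 with a pseudocount of 5 TPM. With the first of these references 2 named genes turned direction, Hist2h2aa1 to 0.11 and Il11 to -0.29, and the median of the cholesterol list was 1.06. The cause was not tested. Without centring, osmotic stress had 187 genes higher and 864 lower. With genes listed at 0 in either library left out, and with rows that share a symbol counted once, both chosen after seeing the data, the counts were 246 and 632, and 252 and 643. A value is called moved where it passed 1.5 times or crossed the 2-fold line. No paired analysis was possible because each condition has 1 library. With neither replicates nor read counts, a 2-fold difference in low genes cannot be told from the variation between libraries.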

Other observations

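Further gene groups of the osmotic stress library held a few changes each. Zinc finger genes apart, 3 of 32 forkhead, Sox and T-box factors fell (9.38%, against 5.56% of all genes) and 2 rose (6.25%, against 2.2%). Sox13 went from 4.23 to 0.869 TPM (-1.35) and Sox5 from 3.55 to 0.931 TPM (-1.11). Sox6 rose from 3.74 to 8.603 TPM (1.15) and Foxf2 from 2.91 to 9.32 TPM (1.53). Of all genes with a mean of 2 to 5 TPM, 12.5% fell and 4.88% rose. Of 70 chromatin regulators 2 fell (2.86%) and 1 rose (1.43%), both shares below those of all genes (5.56% and 2.2%). Asxl2 went from 13.7 to 5.11 TPM (-1.13), Ehmt1, a histone methyltransferase, from 31.3 to 13.1 TPM (-1.06) and Setd1a from 19.8 to 45.1 TPM (1.28). In the autophagy list 1 of 36 fell and 1 rose (2.78% each, against 5.56% and 2.2% of all genes). Ambra1 fell from 14.1 to 3.70 TPM (-1.56) and Uvrag rose from 23.8 to 62.1 TPM (1.48). In the HIF list 2 of 21 fell (9.52%, against 5.56% of all genes) and 1 rose (4.76%, against 2.2%). Ankrd37 fell from 5.02 to 0.665 TPM (-1.72) and Vhl from 24.9 to 10.5 TPM (-1.04), while Adm rose from 84.4 to 159 TPM (1.03). Of 17 snoRNA host genes 2 fell (11.8%, against 5.56% of all genes) and 0 rose. Snhg20 fell from 7.24 to 1.46 TPM (-1.61) and Snhg5 from 45.7 to 18.3 TPM (-1.15).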
